A study of Mus musculus with 15 samples.

Results

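The Ly6 genes Ly6c1, Ly6c2, Ly6a, Ly6e, Ly6d and Ly6k were followed through 15 RNA-sequencing libraries of mature mouse thymocytes. These 6 genes were taken by symbol from a count table of 53762 genes, and all 6 passed the low-count filter that left 16550 genes for testing. The cells came from irradiated hosts on a C57BL/6 background that had received mutant marrow mixed with wild-type (WT) competitor marrow, and all were sorted as CD44lo TCRbhi CD24lo CD69lo. The mutant CD45.2+ cells carried Thpok fl/fl, Runx3 fl/dYFP and Cd4-Cre+, so that all mutant groups shared these alleles, and they were sorted from B2m-/- hosts. Cd4-Cre acts in developing thymocytes that express Cd4, including those that later become CD8 cells. There were 3 mutant groups of 3 libraries: Thpok-RKF+ CD4+CD8+ cells, Thpok-RKF- CD4+CD8+ cells and Thpok-RKF- CD8 single-positive (SP) cells. The labels do not explain the name Thpok-RKF. The 2 WT groups, also of 3 libraries each, were CD45.1+CD45.2+ competitors: CD4 SP cells from B2m-/- hosts, which lack MHC class I, and CD8 SP cells from I-Ab-/- hosts, which lack MHC class II. WT CD8 SP cells were therefore the one group from another host, and host cannot be told apart from lineage or genotype in any comparison with them. Ages are not given. Whether the 3 libraries of a group came from different animals is not stated either, so the tests weigh differences against a spread that may be partly technical.

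Ly6 proteins are small, cysteine-rich molecules held in the outer face of the plasma membrane by a glycosylphosphatidylinositol (GPI) lipid anchor. Several are long-used markers of mouse blood cells. Ly6c1 and Ly6c2 encode the closely similar Ly6C antigens found on monocytes, endothelial cells and subsets of T cells. Ly6a encodes Sca-1, a marker of blood stem cells that T cells also raise in response to interferon. Ly6e encodes thymic shared antigen 1, carried by thymocytes and also inducible by interferon. Ly6d encodes ThB, a marker of early B-lineage cells that is also found on thymocytes, and Ly6k is best known from the testis. Thpok, encoded by Zbtb7b, directs thymocytes to the CD4 helper lineage, and Runx3 directs them to the CD8 cytotoxic lineage.

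The Ly6c1 and Ly6c2 sequences are shown first because they set how well the counts of this pair can be separated. In the GENCODE M21 transcripts the coding sequences of both have 393 bases and agree at 384 of them, an identity of 97.71%, with 9 differences. The coding stretch from base 6 to base 65, counted from 1 at the first base of the start codon, holds 6 of these 9. Capitals mark the bases that differ.
Ly6c1: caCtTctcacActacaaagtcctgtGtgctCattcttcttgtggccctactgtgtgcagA
Ly6c2: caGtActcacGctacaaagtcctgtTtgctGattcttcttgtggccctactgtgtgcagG
Reads were 101 bases long. Of the 766 windows of 101 bases in coding transcripts of Ly6c2, 112 (14.62%) also occurred in Ly6c1, and of the 1755 windows of Ly6c1 these were 6.382%. Ly6c1 and Ly6a shared 18 windows, which is 1.026% of those of Ly6c1 and 1.373% of those of Ly6a, and no window was shared by any other pair of the 6 genes. Ly6a was the nearest relative of the pair, with coding identity of 83.72% to Ly6c1 and 83.46% to Ly6c2. Reads from shared stretches could be split or left uncounted, so values of Ly6c1 and Ly6c2 are given singly and added together.

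RefSeq promoter windows, from 250 bases before to 50 bases after the start site in build GRCm38.p6, were found for 2 of the 6 genes, Ly6c1 and Ly6c2. Each gene had 2 windows, for different start sites. The first of each is shown, as these are the genes that moved in opposite directions. The Ly6c1 window is chr15:75048788-75049087 and the Ly6c2 window chr15:75111922-75112221, both on the minus strand, and capitals mark a match to the Runx motif.
Ly6c1: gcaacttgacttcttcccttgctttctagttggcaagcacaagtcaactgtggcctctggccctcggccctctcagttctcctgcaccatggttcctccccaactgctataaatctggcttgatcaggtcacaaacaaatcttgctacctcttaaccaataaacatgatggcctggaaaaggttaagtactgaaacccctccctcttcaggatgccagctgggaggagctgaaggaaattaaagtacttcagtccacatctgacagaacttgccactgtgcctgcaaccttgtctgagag
Ly6c2: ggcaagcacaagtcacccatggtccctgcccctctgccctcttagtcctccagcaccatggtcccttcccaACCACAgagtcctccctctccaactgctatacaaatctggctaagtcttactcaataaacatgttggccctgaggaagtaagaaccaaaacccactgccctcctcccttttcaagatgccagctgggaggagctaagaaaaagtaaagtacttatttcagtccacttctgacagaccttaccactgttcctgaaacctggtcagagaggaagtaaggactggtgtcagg
In a global alignment 208 of 266 paired bases were the same (78.2%), and 68 further columns held a gap. The letters TGTGGT (Runx), TTCNNNGAA (the interferon-gamma activated site), the interferon-stimulated response element by its core repeat and CCGGAA (Ets) were searched on both strands. The Ly6c2 window shown held 1 Runx match, read on the opposite strand as ACCACA and starting at -179 from the start site. The Ly6c1 window shown held no match to any of the 4. In the second Ly6c2 window the same letters started at -213 from its start site, and the second Ly6c1 window held no match. Runx letters occurred in 16.8% of all 32851 promoter windows of this length, against 8.3%, 3.44% and 14.9% for the other motifs in the order given. A match is a description of letters only.

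The libraries held 37311823 to 48607260 gene counts. Zbtb7b ranged from 768 to 823 CPM (reads of a gene divided by the TMM-normalised library size, on a common scale) in Thpok-RKF+ CD4+CD8+ libraries and was at most 2.95 CPM in the 6 Thpok-RKF- libraries. It ranged from 27.4 to 79.2 CPM in WT CD4 SP and was at most 0.376 CPM in WT CD8 SP libraries. Runx3 ranged from 268 to 361 CPM in Thpok-RKF+ CD4+CD8+, 267 to 295 CPM in Thpok-RKF- CD4+CD8+ and 247 to 306 CPM in Thpok-RKF- CD8 SP libraries, against 23.1 to 32.4 CPM in WT CD4 SP and 194 to 220 CPM in WT CD8 SP libraries. Counts over the whole gene do not check deletion of the floxed parts. In 4 of the 5 groups the library numbered 1 was the farthest from the other replicates, and in WT CD4 SP it was number 3. Across groups, 1543 genes (9.32% of those tested) were called by edgeR for number 1 against the rest, and only Ly6k among the 6 Ly6 genes was called there. Each library held T cell receptor and CD3 transcripts: the summed level of 14 thymocyte identity genes ran from 12865 to 20866 CPM.

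Per kilobase of transcript, Ly6e was the most abundant of the 6 genes in every group. Its mean level was 303 ± 9.12 CPM per kb in Thpok-RKF+ CD4+CD8+ cells (SD, n = 3) and lay between 295 and 402 CPM per kb in all groups. The lowest was Ly6d, whose group means ran from 0.701 to 5.64 CPM per kb, except that Ly6c1 was lower, at 0.966 ± 0.569 CPM per kb, in WT CD8 SP cells. The genes differed widely in how far their level moved between groups. The ratio of the highest to the lowest group mean was 84.3 for Ly6c1, 20.4 for Ly6c2, 9.11 for Ly6a, 8.04 for Ly6d, 2.63 for Ly6k and 1.36 for Ly6e. Over the 10 pairs of groups, edgeR's quasi-likelihood test, adjusted over all tested genes by the Benjamini-Hochberg method, called Ly6c1 in 9, Ly6c2 in 9, Ly6a in 4, Ly6e in 1, Ly6d in 1 and Ly6k in 0. The share of all tested genes that it called ran from 0.961% to 18.4%, depending on the pair. For Ly6k, 4 of the 10 had an unadjusted p under 0.05, DESeq2 called 1, limma called 0, and edgeR called 4 with a replicate block, 4 with a term for the libraries numbered 1 and 4 without them. These pairs share groups and are not independent of each other.

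**Figure D1:**
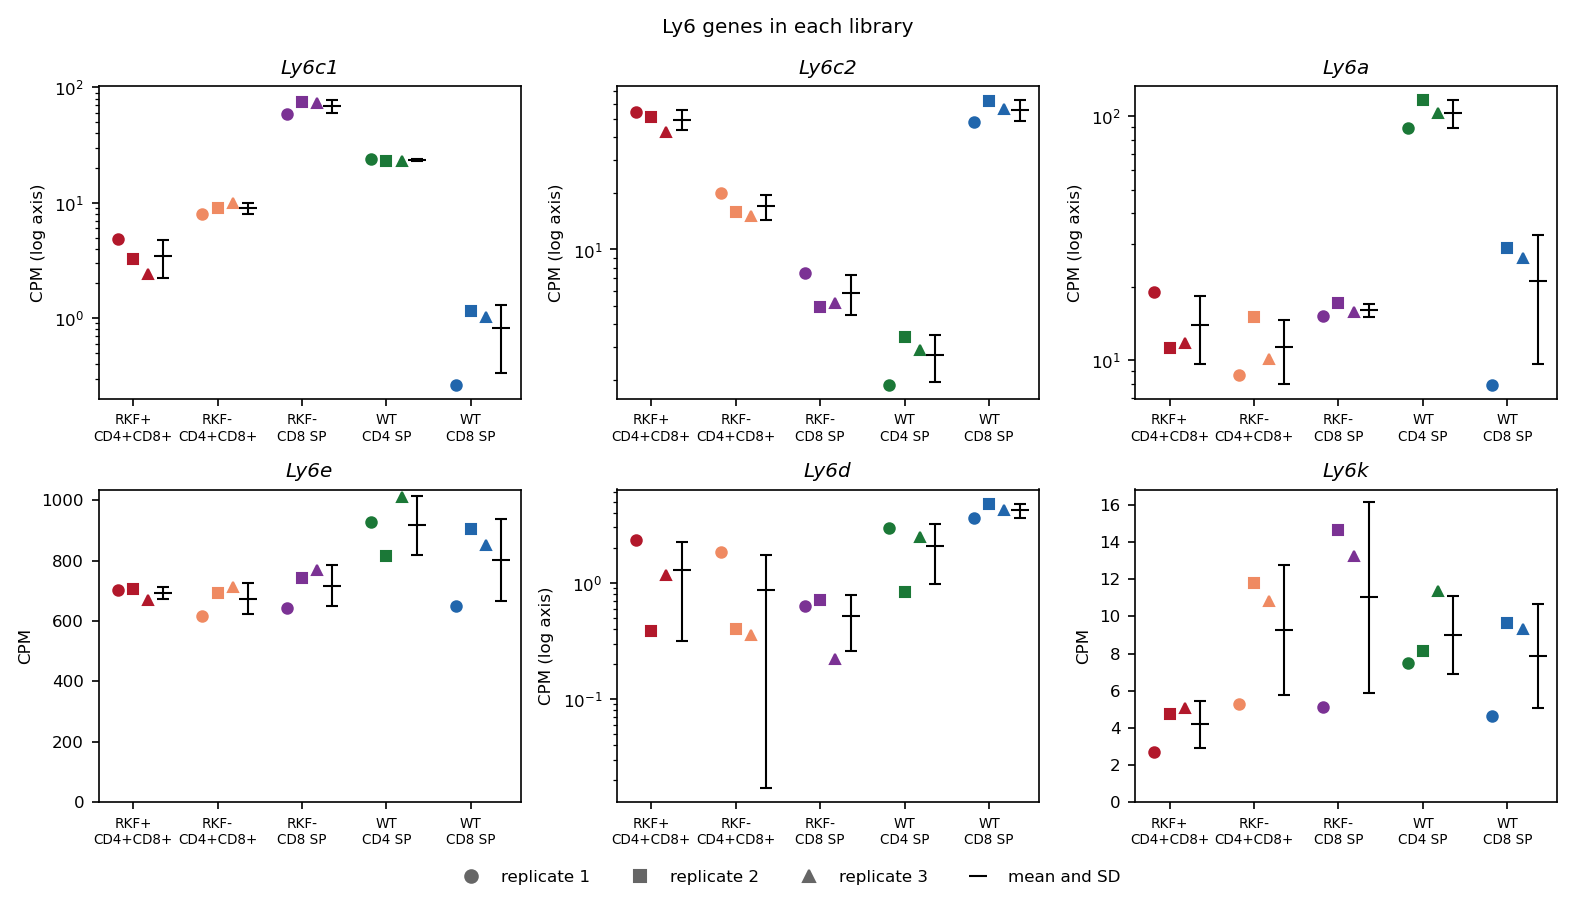
Level of each Ly6 gene in CPM in the 15 libraries, by group, with RKF+ and RKF- standing for Thpok-RKF+ and Thpok-RKF- (circle, square and triangle: replicates 1, 2 and 3; black bar: mean and SD, n = 3). The y axis is logarithmic for Ly6c1, Ly6c2, Ly6a and Ly6d and starts at 0 for Ly6e and Ly6k. Ly6c1 is highest in Thpok-RKF- CD8 SP libraries (58.7 to 74.5 CPM) and Ly6c2 is highest in WT CD8 SP and Thpok-RKF+ CD4+CD8+ libraries.

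Ly6c1 was highest in Thpok-RKF- CD8 SP cells and lowest in the WT CD8 SP cells. The Thpok-RKF+ CD4+CD8+ libraries had 4.82, 3.24 and 2.39 CPM, and the Thpok-RKF- CD4+CD8+ libraries had 7.96, 8.95 and 9.91 CPM. Levels of 58.7, 74.5 and 73.0 CPM were reached in Thpok-RKF- CD8 SP libraries. WT CD4 SP libraries had 23.8, 23.0 and 23.3 CPM, and WT CD8 SP libraries 0.266, 1.15 and 1.03 CPM, which rest on 10 to 46 counts. No group overlapped another in Ly6c1, where 16.4% to 39.6% of all tested genes did not overlap, depending on the pair. From high to low the order was Thpok-RKF- CD8 SP, WT CD4 SP, Thpok-RKF- CD4+CD8+, then Thpok-RKF+ CD4+CD8+ and last WT CD8 SP. Every step in this order passed the test except that between the CD4+CD8+ groups. In bulk libraries, fewer cells with a transcript and less transcript per cell cannot be told apart.

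Ly6c2 ran nearly the other way. The Thpok-RKF+ CD4+CD8+ libraries had 54.4, 50.9 and 42.7 CPM, and the Thpok-RKF- CD4+CD8+ libraries 19.9, 15.9 and 15.1 CPM. Levels were 7.48, 4.93 and 5.15 CPM in Thpok-RKF- CD8 SP libraries. WT CD4 SP libraries had 1.90, 3.39 and 2.90 CPM, and WT CD8 SP libraries 48.2, 62.4 and 56.3 CPM. Thpok-RKF+ CD4+CD8+ and WT CD8 SP libraries overlapped and every other pair of groups was apart. In those other pairs 16.4% to 39.6% of all tested genes did not overlap, depending on the pair. Across the 15 libraries the log2 levels of Ly6c1 and Ly6c2 had a Pearson r of -0.84, which is a description of libraries that fall into 5 groups and share the counting of near-identical reads.

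Thpok-RKF+ was set against Thpok-RKF- CD4+CD8+ cells as the mutant groups that differ by label only in Thpok-RKF. They were not alike in Cd4 itself, at 1036 to 1147 CPM in Thpok-RKF+ and 214 to 397 CPM in Thpok-RKF- libraries. Cd8a was at 935 to 1254 CPM and 748 to 962 CPM. Ly6c2 rose, averaging 49.3 ± 6.01 CPM in Thpok-RKF+ and 17.0 ± 2.59 CPM in Thpok-RKF- cells (SD, n = 3 each), a log2 fold change of 1.54 ± 0.22 (SE; adjusted p = 0.00305, edgeR). Ly6c1 averaged 3.49 ± 1.23 CPM in Thpok-RKF+ and 8.94 ± 0.976 CPM in Thpok-RKF- cells, a log2 fold change of -1.36 ± 0.32. The Ly6c1 libraries did not overlap, which held for 16.4% of all tested genes in this pair, and its adjusted p of 0.0631 missed the threshold of 0.05. Under the other settings tried, that adjusted p ran from 0.000782 to 0.150, and with 1 library left out from 0.00985 to 0.269. It passed with DESeq2, limma, no low-count filter, a term for the libraries numbered 1 and those libraries left out, and also without Thpok-RKF+ CD4+CD8+ replicate 1 (adjusted p = 0.00985). Of the 6 genes, 1 was called here, where 0.961% of all tested genes were. Ly6a, Ly6e, Ly6d and Ly6k had log2 fold changes of 0.31 ± 0.36, 0.04 ± 0.12, 0.57 ± 0.73 and -1.15 ± 0.42, and none of these 4 passed.

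Within Thpok-RKF- mutants, CD4+CD8+ cells were set against CD8 SP cells. Ly6c1 fell in the CD4+CD8+ cells and Ly6c2 rose. Ly6c1 averaged 8.94 ± 0.976 CPM in CD4+CD8+ and 68.7 ± 8.69 CPM in CD8 SP cells (SD, n = 3 each), 7.69-fold lower (log2 fold change -2.94 ± 0.33, adjusted p = 0.000122, edgeR). Ly6c2 averaged 17.0 ± 2.59 CPM in CD4+CD8+ and 5.85 ± 1.41 CPM in CD8 SP cells, 2.90-fold higher (log2 fold change 1.54 ± 0.22, adjusted p = 0.00107, edgeR). These were 2 of the 6 genes, against 2.44% of all tested genes. Thpok-RKF+ CD4+CD8+ cells set against the same CD8 SP cells gave log2 fold changes of -4.30 ± 0.35 for Ly6c1 and 3.08 ± 0.23 for Ly6c2, again 2 of 6 genes called, against 5.52% of all.

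Thpok-RKF- CD8 SP cells were set against WT CD8 SP cells, which carry the same coreceptor. Here the pair was exchanged: Ly6c1 rose and Ly6c2 fell. Ly6c1 averaged 68.7 ± 8.69 CPM in the mutant and 0.815 ± 0.480 CPM in WT CD8 SP cells (SD, n = 3 each), 83.4-fold higher (log2 fold change 6.38 ± 0.40, adjusted p = 1.12e-07, edgeR). On the scale of log2 of CPM plus 1, the same change was 5.34 by limma. Ly6c2 averaged 5.85 ± 1.41 CPM in the mutant and 55.6 ± 7.13 CPM in WT CD8 SP cells, 9.51-fold lower (log2 fold change -3.25 ± 0.23, adjusted p = 3.86e-07, edgeR). Ly6d also fell, and these were 3 of the 6 genes, against 18.4% of all tested genes.

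Against WT CD4 SP cells, which shared the B2m-/- host, Thpok-RKF- CD8 SP cells were higher in both genes of the pair. Ly6c1 was 2.94-fold higher (log2 fold change 1.56 ± 0.31, adjusted p = 0.00335, edgeR) and Ly6c2 was 2.14-fold higher (1.10 ± 0.23, adjusted p = 0.00427). With only these 2 groups in the fit the Ly6c2 call was lost (adjusted p = 0.0524, within a range of 1.82e-05 to 0.0524 over the other settings). With Ly6a, described further on, 3 of the 6 genes were called, against 17.7% of all. Both CD4+CD8+ groups had less Ly6c1 and more Ly6c2 than WT CD4 SP cells. The log2 fold change of Ly6c1 was -2.74 ± 0.33 in Thpok-RKF+ and -1.39 ± 0.31 in Thpok-RKF- cells, and Ly6c2 was 18.0-fold higher (4.17 ± 0.25) and 6.20-fold higher (2.63 ± 0.23). These comparisons share the WT CD4 SP libraries. They called 3 of 6 genes in Thpok-RKF+ (7.26% of all genes) and 4 of 6 in Thpok-RKF- cells (17.6% of all genes).

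Against WT CD8 SP cells, Ly6c1 was higher in both CD4+CD8+ groups, by 2.08 ± 0.36 on the log2 scale in Thpok-RKF+ (adjusted p = 0.00144, edgeR) and 3.44 ± 0.36 in Thpok-RKF- cells (adjusted p = 2.41e-05). The Thpok-RKF+ value rests on low counts in WT CD8 SP cells: it was 1.40 without the libraries numbered 1 and missed the threshold with only these groups in the fit (adjusted p = 0.0579, within a range of 1.49e-08 to 0.0579 over the other settings). Ly6c2 in Thpok-RKF+ cells, at 49.3 ± 6.01 CPM, was not separated from its 55.6 ± 7.13 CPM in WT CD8 SP cells (log2 fold change -0.17 ± 0.21, adjusted p = 0.722), while in Thpok-RKF- CD4+CD8+ cells it was 3.28-fold lower (-1.71 ± 0.22, adjusted p = 0.000130). Of the 6 genes, 1 was called for Thpok-RKF+ (11.1% of all genes) and 2 for Thpok-RKF- cells (12.1% of all genes).

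**Figure D2:**
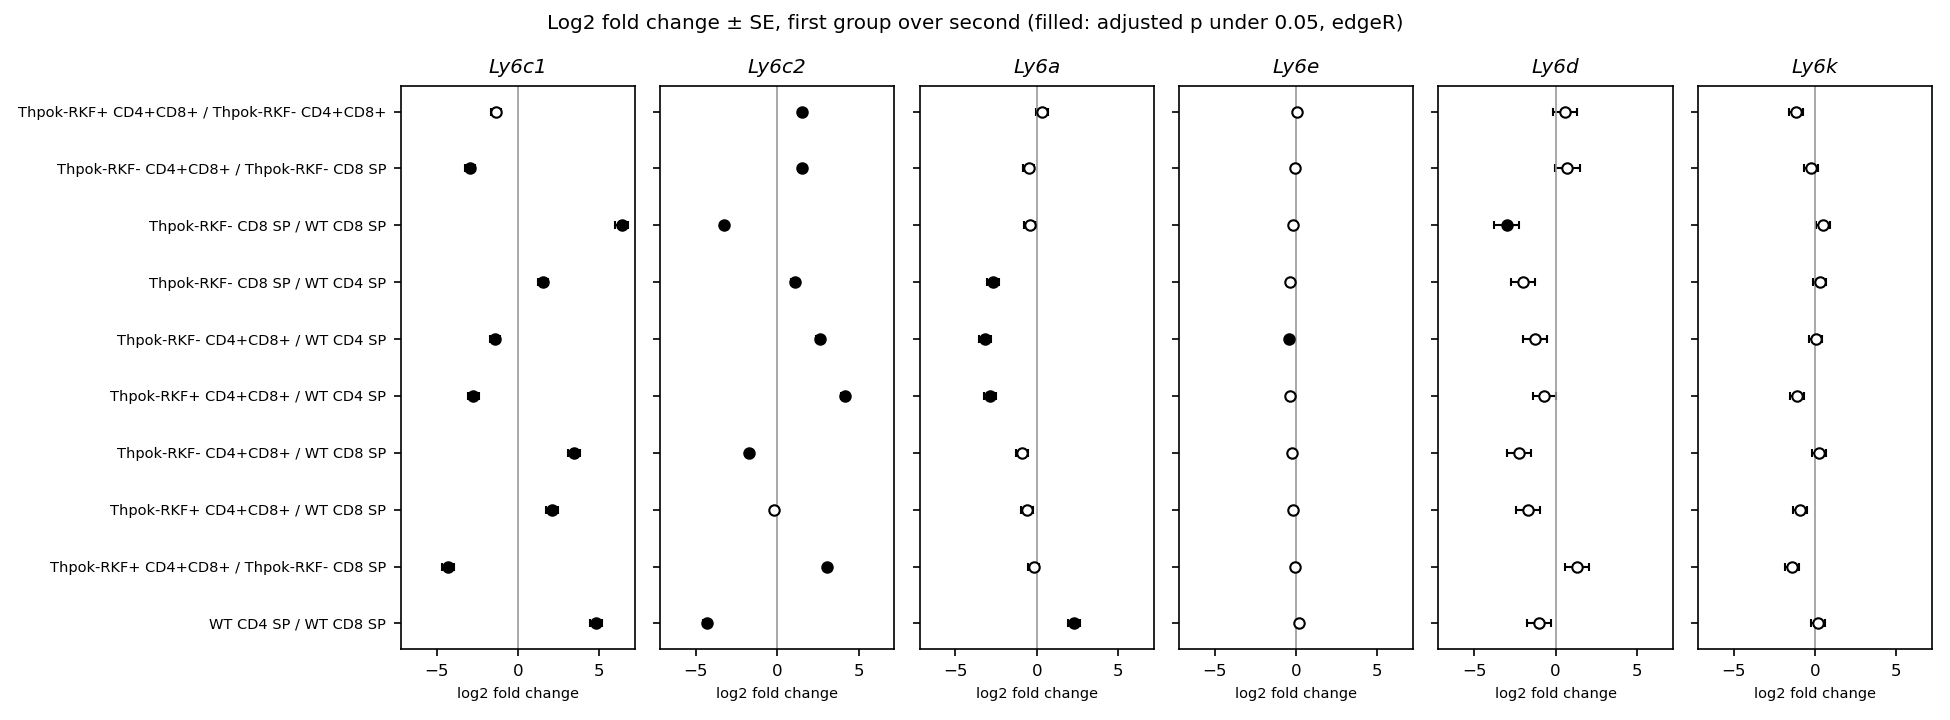
Log2 fold change of each Ly6 gene in the 10 pairs of groups, first group over second (point: estimate; bar: SE; filled: adjusted p under 0.05 by edgeR; n = 3 libraries per group). Ly6c1 and Ly6c2 lie on opposite sides of 0 in all pairs except Thpok-RKF- CD8 SP over WT CD4 SP, where both are higher, and Ly6e lies between -0.45 and 0.19 in all pairs.

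Added together, Ly6c1 and Ly6c2 spanned a narrower range of group means than either gene alone. Their summed level was 52.8 ± 7.16 CPM in Thpok-RKF+ CD4+CD8+ cells, 25.9 ± 1.72 CPM in Thpok-RKF- CD4+CD8+ cells, 74.6 ± 7.28 CPM in Thpok-RKF- CD8 SP cells, 26.1 ± 0.347 CPM in WT CD4 SP cells and 56.5 ± 7.59 CPM in WT CD8 SP cells (SD, n = 3 each). In this sum Thpok-RKF- CD4+CD8+ lay close to WT CD4 SP cells (log2 fold change -0.03 ± 0.13), and Thpok-RKF+ CD4+CD8+ lay close to WT CD8 SP cells (-0.08 ± 0.13). In both cases the libraries overlapped and the test was not passed (adjusted p = 0.923 and 0.817, edgeR), while the other 8 pairs passed.

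The makeup of the sum separated groups that the sum did not. Ly6c2 supplied 91.9%, 94.0% and 94.7% of the counts of the pair in the Thpok-RKF+ CD4+CD8+ libraries and 71.5%, 63.9% and 60.4% in the Thpok-RKF- CD4+CD8+ libraries. It supplied 11.3%, 6.20% and 6.59% in Thpok-RKF- CD8 SP libraries. It supplied 7.37%, 12.9% and 11.1% in WT CD4 SP libraries and 99.5%, 98.2% and 98.2% in WT CD8 SP libraries. The widest 95% Wilson interval of any of these shares was that of Thpok-RKF- CD4+CD8+ replicate 3, from 57.5% to 63.2%, and intervals cover counting error only. The Thpok-RKF- CD8 SP and WT CD4 SP libraries overlapped in this share and every other pair of groups was apart. The mean share was 93.5 ± 1.48% in Thpok-RKF+ and 65.3 ± 5.65% in Thpok-RKF- CD4+CD8+ cells, 28.2 percentage points higher. In exact two-sided permutation tests of 3 against 3 libraries, that difference and each of 4 more (both CD4+CD8+ groups against each WT group) gave p = 0.1, the smallest this design allows, and 0.1 after Benjamini-Hochberg adjustment over the 5 tests.

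**Figure D3:**
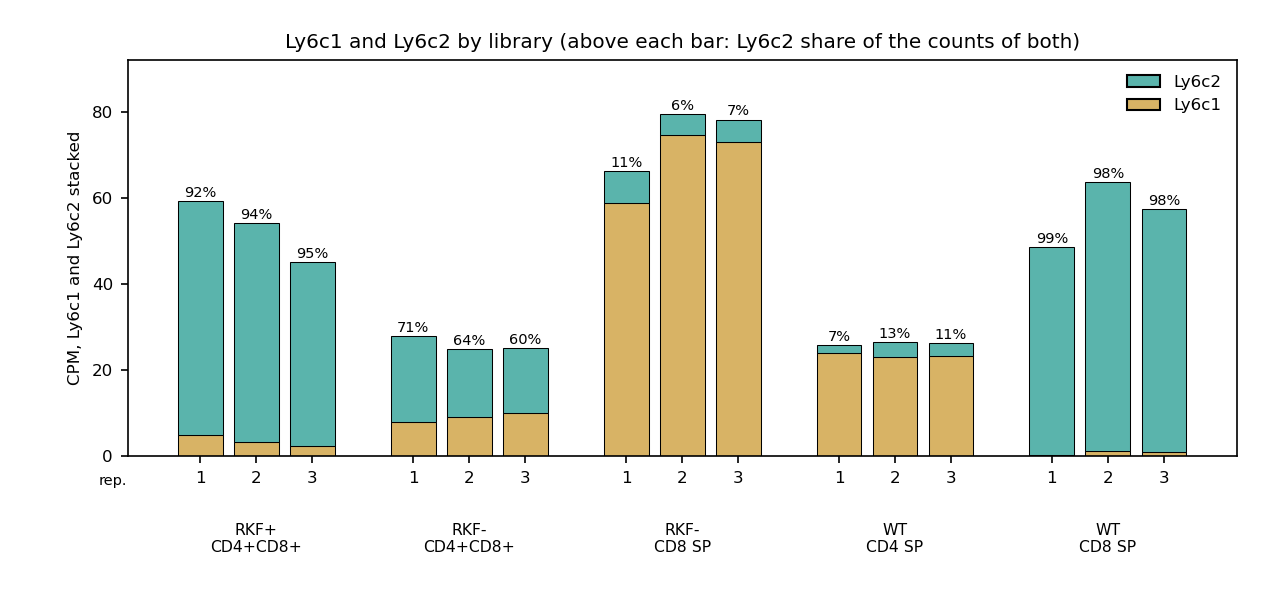
Stacked level of Ly6c1 (lower part) and Ly6c2 (upper part) in CPM in each of the 15 libraries, with the Ly6c2 share of the counts of both above the bar. The Thpok-RKF- CD8 SP bars average 74.6 CPM and the WT CD8 SP bars 56.5 CPM, and Ly6c2 makes up at most 11.3% of the Thpok-RKF- CD8 SP bars and at least 98.2% of the WT CD8 SP bars.

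Between WT lineages, CD4 SP cells had more Ly6c1 and less Ly6c2 than CD8 SP cells. Ly6c2 averaged 2.73 ± 0.764 CPM in WT CD4 SP and 55.6 ± 7.13 CPM in WT CD8 SP cells (SD, n = 3 each), 20.3-fold lower (log2 fold change -4.35 ± 0.25, adjusted p = 3.16e-08, edgeR). Ly6c1 averaged 23.4 ± 0.418 CPM in WT CD4 SP and 0.815 ± 0.480 CPM in WT CD8 SP cells, and Ly6a also rose, so that 3 of the 6 genes were called, against 18% of all tested genes. In mutant cells without Thpok-RKF the pair ran in the opposite direction: the cells with CD4 had less Ly6c1 and more Ly6c2 than the CD8 SP cells. The difference of differences is CD4+CD8+ minus CD8 SP in the mutant less CD4 SP minus CD8 SP in WT. It tests whether the mutant and WT differences were unequal, not whether their signs were opposite. It was -7.77 ± 0.50 for Ly6c1 (adjusted p = 2.46e-07), 5.88 ± 0.33 for Ly6c2 (adjusted p = 6.41e-08) and -2.79 ± 0.52 for Ly6a (adjusted p = 0.00228), all by edgeR. These were 3 of the 6 genes, against 14.3% of all. For Ly6a the difference within the mutant was -0.50 ± 0.36 and did not pass (adjusted p = 0.742, edgeR), so no reversal was shown for that gene. For the sum of Ly6c1 and Ly6c2 the difference of differences was -0.44 ± 0.19 (adjusted p = 0.150). The mutant cells with CD4 also carry CD8, and the host differs for WT CD8 SP cells, so this contrast is not of coreceptor alone.

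**Figure D4:**
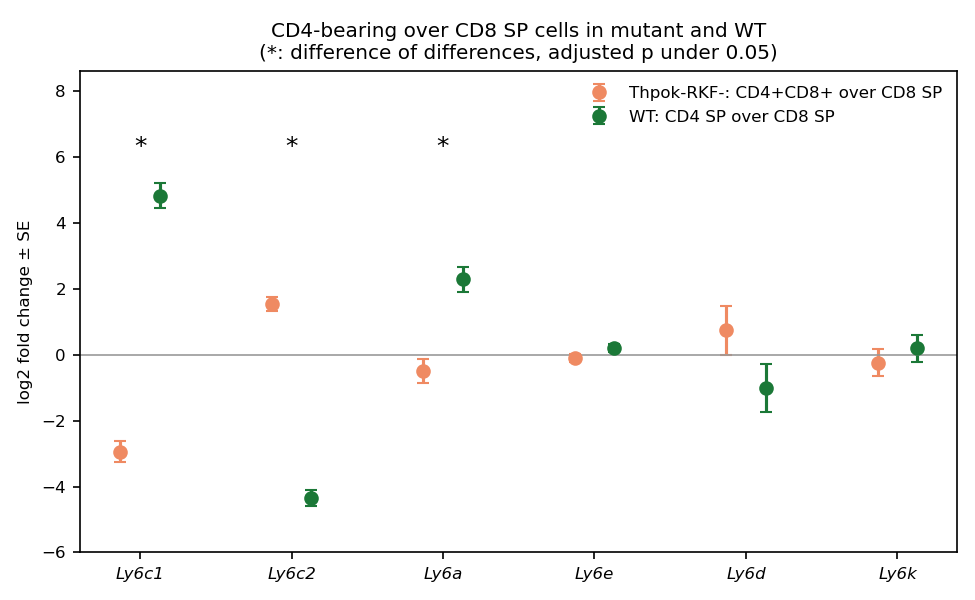
Log2 fold change of each Ly6 gene in Thpok-RKF- CD4+CD8+ over Thpok-RKF- CD8 SP cells (orange) and in WT CD4 SP over WT CD8 SP cells (green), with SE, n = 3 libraries per group. Asterisks mark the genes whose difference of differences passed the edgeR test, Ly6c1, Ly6c2 and Ly6a. Ly6c1 is at -2.94 in mutant and 4.82 in WT cells, and Ly6c2 at 1.54 and -4.35.

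Ly6a, the gene of Sca-1, was high in WT CD4 SP cells and several times lower in every other group. The Thpok-RKF+ CD4+CD8+ libraries had 19.0, 11.2 and 11.7 CPM, the Thpok-RKF- CD4+CD8+ libraries 8.71, 14.98 and 10.1 CPM, and the Thpok-RKF- CD8 SP libraries 15.1, 17.1 and 15.7 CPM. WT CD4 SP libraries had 89.1, 116 and 103 CPM, and WT CD8 SP libraries 7.92, 28.9 and 26.2 CPM. All WT CD4 SP libraries lay above all 12 others, and the 4 lower groups overlapped with their neighbours in the order of means. In pairs with WT CD4 SP cells, 21% to 38.4% of all tested genes did not overlap. Ly6a was 9.12-fold lower in Thpok-RKF- CD4+CD8+ (log2 fold change -3.19 ± 0.39, adjusted p = 0.000108, edgeR), 7.35-fold lower in Thpok-RKF+ CD4+CD8+ (-2.88 ± 0.38, adjusted p = 0.000221) and 6.43-fold lower in Thpok-RKF- CD8 SP (-2.69 ± 0.38, adjusted p = 0.000218) than in WT CD4 SP cells, comparisons that share their WT libraries. Between the WT groups it averaged 103 ± 13.6 CPM in CD4 SP and 21.0 ± 11.4 CPM in CD8 SP cells, 4.89-fold higher (2.29 ± 0.37, adjusted p = 0.000669). WT CD8 SP replicate 1 was the low library of its group. Without it, Ly6a was also called lower than WT CD8 SP in both CD4+CD8+ groups (log2 fold change -0.96, adjusted p = 0.0272 in Thpok-RKF+; -1.27, adjusted p = 0.00511 in Thpok-RKF- cells), where with it the values were -0.59 ± 0.36 and -0.90 ± 0.36 and did not pass. The Thpok-RKF- value also passed with no filter (adjusted p = 0.0287).

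Because Ly6a and Ly6e answer to interferon, the values of 30 interferon response genes are given beside them. In WT CD4 SP over WT CD8 SP cells, 19 of the 30 rose and 0 fell (edgeR; 22 had an unadjusted p under 0.05, DESeq2 called 20 and limma 19), with a median log2 fold change of 0.88 against -0.03 over all tested genes and a called share of 63.3% against 18%. The 4 with the smallest adjusted p were Irf9 (1.11 ± 0.12), a subunit of the type I interferon transcription complex, Usp18 (1.64 ± 0.21), a brake on its receptor, Ifit2 (1.13 ± 0.15), an antiviral RNA-binding protein, and Irf7 (1.06 ± 0.15), an interferon-amplifying factor. In Thpok-RKF- CD8 SP over WT CD4 SP cells, 16 fell and 1 rose (56.7% against 17.7% of all), with a median of -0.61, led by Ifi27l2a (-1.67 ± 0.21), Oasl2 (-1.81 ± 0.30), Oas1a (-1.62 ± 0.28) and Rtp4 (-1.07 ± 0.19). In Thpok-RKF- CD8 SP over WT CD8 SP cells, 5 rose and 3 fell (26.7% against 18.4% of all) with a median of 0.07. Thpok-RKF+ over Thpok-RKF- CD4+CD8+ cells called 1 of the 30 (3.33% against 0.961% of all), Mx2 (1.51 ± 0.31), an antiviral GTPase, with a median of 0.07. Without the libraries numbered 1, edgeR called 8 of the 30, where it called 1753 of all 16443 tested genes. The summed level of the 30 genes ran from 5868 to 6839 CPM in WT CD4 SP libraries and from 3314 to 5108 CPM in the other 12. The part of interferon signalling in the Ly6a values was not tested.

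Among 13 interferon receptors and signal transducers, Thpok-RKF- CD8 SP cells had more of the feedback inhibitors Socs1 and Socs3 than either WT group. Socs3 was 2.34 ± 0.22 log2 units higher than in WT CD8 SP and 2.27 ± 0.22 higher than in WT CD4 SP cells, and Socs1 was 1.52 ± 0.11 and 1.30 ± 0.11 higher. In the first of these comparisons 4 rose and 2 fell (46.2% against 18.4% of all), and in the second 2 rose and 3 fell (38.5% against 17.7%). WT CD4 SP over WT CD8 SP cells called Ifngr2 higher (0.72 ± 0.11) and Ifnar2 lower (-0.49 ± 0.10), subunits of the interferon-gamma and the type I interferon receptor. That share of the 13, 15.4%, was near the 18% of all tested genes. Socs1 was also the 1 of the 13 genes called in Thpok-RKF+ over Thpok-RKF- CD4+CD8+ cells (0.60 ± 0.11), a share of 7.69% against 0.961% of all.

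Ly6e was abundant and nearly even. Its libraries had 701, 707 and 668 CPM in Thpok-RKF+ CD4+CD8+, 616, 694 and 712 CPM in Thpok-RKF- CD4+CD8+ and 642, 741 and 769 CPM in Thpok-RKF- CD8 SP cells. WT CD4 SP libraries had 928, 815 and 1009.6 CPM, and WT CD8 SP libraries 650, 905 and 852 CPM. Every WT CD4 SP library was above every mutant library, in pairs where 21% to 38.4% of all tested genes did not overlap, and the WT groups overlapped. It passed the test in Thpok-RKF- CD4+CD8+ against WT CD4 SP cells, 1.36-fold lower (log2 fold change -0.45 ± 0.13, adjusted p = 0.0253, edgeR). That call was lost without WT CD4 SP replicate 1 or 3, without Thpok-RKF- CD4+CD8+ replicate 1 or 2 (adjusted p from 0.0538 to 0.0887) and without the low-count filter (adjusted p = 0.0526). In Thpok-RKF+ CD4+CD8+ and Thpok-RKF- CD8 SP cells it was -0.41 ± 0.12 and -0.36 ± 0.12 against WT CD4 SP, with adjusted p of 0.0655 and 0.0638. Both passed with a replicate block (adjusted p = 0.0359 and 0.0327) and with a term for the libraries numbered 1 (adjusted p = 0.0238 and 0.0232). The Thpok-RKF+ value also passed with DESeq2 (adjusted p = 0.0244) and without those libraries (adjusted p = 0.0324), and the Thpok-RKF- CD8 SP value without WT CD4 SP replicate 2 (adjusted p = 0.0417). Over the settings these adjusted p ran from 0.0238 to 0.155 and from 0.0232 to 0.174. Ly6a and Ly6e had a Pearson r of 0.84 over the 15 libraries, which share group structure.

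Ly6d was counted at low levels throughout, from 10 to 191 counts per library. The Thpok-RKF+ CD4+CD8+ libraries had 2.33, 0.389 and 1.16 CPM, the Thpok-RKF- CD4+CD8+ libraries 1.85, 0.399 and 0.355 CPM, and the Thpok-RKF- CD8 SP libraries 0.629, 0.713 and 0.223 CPM. WT CD4 SP libraries had 2.95, 0.828 and 2.47 CPM, and WT CD8 SP libraries 3.59, 4.79 and 4.20 CPM. WT CD8 SP libraries were above all others, and the 4 remaining groups overlapped except Thpok-RKF- CD8 SP with WT CD4 SP cells. In pairs with WT CD8 SP cells, 27.1% to 39.6% of all tested genes did not overlap. Ly6d fell 7.997-fold in Thpok-RKF- CD8 SP against WT CD8 SP cells (log2 fold change -2.999 ± 0.78, adjusted p = 0.0139, edgeR), a call lost without Thpok-RKF- CD8 SP replicate 3 (adjusted p = 0.0635) and -1.74 on the log2 scale by limma. Against WT CD8 SP cells it was -1.70 ± 0.73 in Thpok-RKF+ and -2.26 ± 0.75 in Thpok-RKF- CD4+CD8+ cells, where neither passed (adjusted p = 0.175 and 0.0652). The Thpok-RKF- value passed with DESeq2, limma, no filter, only the compared groups, a replicate block, a term for the libraries numbered 1 and those libraries left out, and also without Thpok-RKF- CD4+CD8+ replicate 1, at -3.44 (adjusted p = 0.0164). Over the settings its adjusted p ran from 0.0102 to 0.0683. Of the 5 tested B cell genes, 2 were lower and 1 was higher in Thpok-RKF- CD8 SP than in WT CD8 SP cells, a called share of 60% against 18.4% of all tested genes. Ighd, the heavy chain of immunoglobulin D, averaged 0.320 ± 0.305 CPM in Thpok-RKF- CD8 SP and 45.3 ± 10.4 CPM in WT CD8 SP cells (SD, n = 3 each; log2 fold change -7.14 ± 0.84, adjusted p = 3.06e-05, edgeR). Cd79b, a B cell receptor subunit, was lower in Thpok-RKF- CD8 SP than WT CD8 SP cells (-2.73 ± 0.41, adjusted p = 0.000282), while Blk was higher (4.86 ± 1.501, adjusted p = 0.0470) and Ms4a1, which marks B cells, was at 0 in every library. The summed level of the 9 B cell genes was 726 to 996 CPM in Thpok-RKF- CD8 SP and 843 to 1190 CPM in WT CD8 SP libraries, most of it Ighm, and its part in the Ly6d result was not tested.

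Ly6k was low in the libraries numbered 1. The Thpok-RKF+ CD4+CD8+ libraries had 2.73, 4.77 and 5.07 CPM, the Thpok-RKF- CD4+CD8+ libraries 5.27, 11.8 and 10.8 CPM, and the Thpok-RKF- CD8 SP libraries 5.14, 14.7 and 13.2 CPM. WT CD4 SP libraries had 7.47, 8.11 and 11.4 CPM, and WT CD8 SP libraries 4.65, 9.63 and 9.33 CPM. The library numbered 1 was the lowest in 5 of 5 groups (log2 difference of number 1 from the rest -0.95 ± 0.15, adjusted p = 0.00564, edgeR with group in the model). Thpok-RKF+ CD4+CD8+ cells had the lowest mean, 4.19 ± 1.27 CPM, and Thpok-RKF- CD4+CD8+ cells had 9.28 ± 3.51 CPM (log2 fold change -1.15 ± 0.42, adjusted p = 0.232). Without the libraries numbered 1 the difference was -1.20 with an adjusted p of 0.0121, and with a term for them -1.12 with an adjusted p of 0.0227. Under a replicate block it was -1.12 with an adjusted p of 0.0383. Over the settings the adjusted p ran from 0.0121 to 0.322. Ly6k against Thpok-RKF- CD8 SP cells was -1.39 ± 0.42 in Thpok-RKF+ CD4+CD8+ cells (adjusted p = 0.0751). It passed with DESeq2, no filter, a replicate block (adjusted p = 0.00389), a term for the libraries numbered 1, those libraries left out and without Thpok-RKF- CD8 SP replicate 1 (-1.73, adjusted p = 0.0226).

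Other cells that carry Ly6 proteins were read from marker lists. The 12 endothelial and stromal genes summed to 218 to 241 CPM in Thpok-RKF- CD8 SP and 160 to 182 CPM in WT CD8 SP libraries. Nearly all of this was Pecam1, an adhesion molecule that T cells also carry, with means of 225 ± 10.9 CPM in Thpok-RKF- CD8 SP and 168 ± 10.2 CPM in WT CD8 SP cells (SD, n = 3 each). Kdr and Tek, receptors of endothelial cells, were at 0 in both groups, while Cdh5, the endothelial cadherin, averaged 0.00749 ± 0.0130 CPM in Thpok-RKF- CD8 SP and 1.10 ± 0.445 CPM in WT CD8 SP cells. Kdr and Tek were at 0 in the CD4+CD8+ groups too, but both had a count in WT CD4 SP cells. There the 12 genes summed to 253 to 306 CPM. The part of such cells in the Ly6c1 result was not tested. The 12 plasmacytoid and conventional dendritic cell genes summed to 543 to 748 CPM in Thpok-RKF+ CD4+CD8+ and 736 to 829 CPM in Thpok-RKF- CD4+CD8+ libraries. Sums were 723 to 914 CPM in Thpok-RKF- CD8 SP, 257 to 303 in WT CD4 SP and 561 to 615 in WT CD8 SP. In Thpok-RKF- CD8 SP over WT CD8 SP cells 1 of 8 tested genes rose and 2 fell (37.5% against 18.4% of all). Their part was not tested either.

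The 14 monocyte, macrophage and neutrophil genes summed to 209 to 250 CPM in Thpok-RKF+ CD4+CD8+, 212 to 244 CPM in Thpok-RKF- CD4+CD8+, 172 to 183 CPM in Thpok-RKF- CD8 SP, 330 to 401 CPM in WT CD4 SP and 146 to 195 CPM in WT CD8 SP libraries. Most of the sum was Ctss, a protease of antigen-presenting cells, so it reads mainly that gene. Cd14 was at 0 in every group except Thpok-RKF+ CD4+CD8+, and all 14 genes had a count in that group. In WT CD8 SP libraries Cybb, S100a9, Mpeg1 and Spi1 were at 0, and 9 of the 14 were detected, among them Fcer1g, an Fc receptor subunit, which averaged 1.55 ± 1.32 CPM there and 0.0801 to 0.614 CPM in the other groups. Lyz2, a lysozyme gene of macrophages, stood out in Thpok-RKF+ CD4+CD8+ replicate 1 (24.5 CPM) and WT CD4 SP replicate 1 (28.4 CPM). The part of such cells in the Ly6 values was not tested. Of 11 thymic epithelial genes, Foxn1, a defining factor, was at 0 in every library, while Epcam averaged 3.57 to 10.6 CPM and Ccl25 averaged 8.78 to 12.2 CPM in the 5 groups.

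The summed level of 14 activated, effector and memory T cell genes was 839 to 940 CPM in Thpok-RKF+ CD4+CD8+, 759 to 840 CPM in Thpok-RKF- CD4+CD8+, 561 to 616 CPM in Thpok-RKF- CD8 SP, 263 to 313 CPM in WT CD4 SP and 912 to 977 CPM in WT CD8 SP libraries. Il2rb, the beta chain of the interleukin 2 and 15 receptors, and Prf1, the pore-forming protein of cytotoxic cells, made up most of it. Prf1 averaged 323 ± 23.9 CPM in Thpok-RKF- CD8 SP and 129 ± 14.1 CPM in WT CD8 SP cells (SD, n = 3 each), where Ly6c2 and Il2rb ran the other way. In Thpok-RKF+ over Thpok-RKF- CD4+CD8+ cells 0 of the 12 tested genes were called by edgeR, where 4 had an unadjusted p under 0.05 and DESeq2 and limma called 3 each. Their part in the Ly6c2 result was not tested.

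Few other genes of the family passed the low-count filter, which 16550 of the 53762 genes in the whole table passed. Of 42 further Ly6 and urokinase-receptor family genes listed, 39 were in the table, 17 had no count in any library and 5 passed the filter. These were Lypd6b, Plaur, which encodes the urokinase receptor, Lynx1, Ly6g5b and Ly6i. Lypd6b stood at 31.7 ± 2.06 CPM in Thpok-RKF+ CD4+CD8+, 29.3 ± 9.43 in Thpok-RKF- CD4+CD8+, 46.0 ± 4.38 in Thpok-RKF- CD8 SP, 47.4 ± 2.04 in WT CD4 SP and 48.3 ± 8.43 CPM in WT CD8 SP cells (SD, n = 3 each). It fell in Thpok-RKF- CD4+CD8+ cells against WT CD4 SP (log2 fold change -0.69 ± 0.20, adjusted p = 0.0260, edgeR) and WT CD8 SP cells (-0.72 ± 0.20, adjusted p = 0.0263). The called share of the 5 was 20% in both pairs, against 17.6% and 12.1% of all tested genes. No other of the 5 was called in any of the 10 pairs by edgeR. In Thpok-RKF+ over Thpok-RKF- CD4+CD8+ cells 0 of the 5 were called, 1 had an unadjusted p under 0.05, and DESeq2 and limma called 0.

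Genes that make and attach the GPI anchor on which Ly6 proteins depend were followed too. Of 29 tested, 0 were called by edgeR in Thpok-RKF+ over Thpok-RKF- CD4+CD8+ cells, where 9 had an unadjusted p under 0.05, DESeq2 called 4 and limma 0, and edgeR called 7 without the libraries numbered 1. Over all tested genes, DESeq2 called 651 of 16550 and edgeR 1753 of 16443 without those libraries. In Thpok-RKF- CD8 SP over WT CD8 SP cells 0 rose and 4 fell, Pigk, Pigu, Dpm2 and Gpaa1, by 0.43 to 0.59 on the log2 scale, a called share of 13.8% against 18.4% of all tested genes. Pgap3, which remodels the lipid of the anchor, was the largest change in the list between WT groups: it averaged 6.64 ± 2.17 CPM in WT CD4 SP and 30.7 ± 4.98 CPM in WT CD8 SP cells (log2 fold change -2.21 ± 0.22, adjusted p = 8.16e-06). There 3 rose and 4 fell, a share of 24.1% against 18%. In Thpok-RKF- CD8 SP over WT CD4 SP cells 2 rose, Pgap3 (2.01 ± 0.22) and Piga (0.99 ± 0.20), the catalytic subunit of the first step, and 5 fell, a share of 24.1% against 17.7%.

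Among 14 tested genes of other GPI-anchored T cell surface proteins, Cd160, a receptor for HVEM, was the 1 gene called in Thpok-RKF+ over Thpok-RKF- CD4+CD8+ cells (log2 fold change 1.90 ± 0.31, adjusted p = 0.00980, edgeR), a share of 7.14% against 0.961% of all. It averaged 72.8 ± 9.55 CPM in Thpok-RKF+ and 19.5 ± 5.04 CPM in Thpok-RKF- cells, 14.0 ± 5.86 CPM in Thpok-RKF- CD8 SP, 2.10 ± 0.770 CPM in WT CD4 SP and 88.6 ± 15.8 CPM in WT CD8 SP cells (SD, n = 3 each). In Thpok-RKF- CD8 SP over WT CD8 SP cells 1 of the 14 rose and 7 fell, led by Cd160 (-2.66 ± 0.32), Cd48 (-1.06 ± 0.14), Cd52 (-1.18 ± 0.17) and Nt5e (-2.03 ± 0.36), which encodes CD73, a called share of 57.1% against 18.4% of all. Between WT groups 3 rose and 4 fell, a share of 50% against 18%.

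Genes around the Ly6 genes on chromosome 15 were listed too. Of 15 tested, 0 were called by edgeR in Thpok-RKF+ over Thpok-RKF- CD4+CD8+ cells, with 1 at an unadjusted p under 0.05 and 0 by DESeq2 and by limma. In Thpok-RKF- CD8 SP over WT CD8 SP cells 0 rose and 3 fell, Top1mt (-1.24 ± 0.27), Eef1d (-0.54 ± 0.13) and Arc (-1.10 ± 0.28), a called share of 20% against 18.4% of all tested genes. Over WT CD4 SP cells 2 rose, Them6 (0.99 ± 0.19) and Zc3h3 (0.65 ± 0.19), a share of 13.3% against 17.7%. Between WT groups 1 rose and 2 fell, a share of 20% against 18%.

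The genes whose log2 levels most resembled each Ly6 gene were sought among 8340 genes over the 15 libraries, and r is given as a description over libraries that share groups. Those nearest Ly6c2 were Trpm1 (r = 0.96), Il2rb (r = 0.96) and Cd160 (r = 0.94). Il2rb averaged 430 ± 29.0 CPM in Thpok-RKF+ CD4+CD8+, 370 ± 66.0 in Thpok-RKF- CD4+CD8+, 184 ± 26.0 in Thpok-RKF- CD8 SP, 136 ± 38.9 in WT CD4 SP and 597 ± 10.9 CPM in WT CD8 SP cells. Nearest Ly6c1 were Mapk1ip1 (r = 0.95), Selenop (r = 0.94), which encodes a selenium carrier protein, and Mif4gd (r = 0.93). Selenop averaged 204 ± 20.6 CPM in Thpok-RKF+ CD4+CD8+ cells, 228 ± 37.8 CPM in Thpok-RKF- CD4+CD8+ cells, 363 ± 30.2 CPM in Thpok-RKF- CD8 SP cells, 243 ± 12.7 CPM in WT CD4 SP cells and 116 ± 14.3 CPM in WT CD8 SP cells. Its order of groups was that of Ly6c1, over a range far smaller than that gene's. Nearest Ly6a were Amz2 (r = 0.91), Oma1 (r = 0.87) and the interferon-response gene Ifi27l2a (r = 0.87). For Ly6e they were Nipsnap3b, Borcs7 and Pigyl (r = 0.91, 0.91 and 0.88), for Ly6d Mfsd4b4, Ipo4 and Rnf144a (r = 0.92, 0.89 and 0.88) and for Ly6k Vmac, Atp1b1 and Cnp (r = 0.90, 0.89 and 0.89).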

How the data were processed

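The authors deposited raw counts of reads for each gene and library, and the same counts, with CPM, in tables of the whole series. Tools named in the submitters' processing notes, with no role or order, are Trimmomatic, bcl2fastq, HTSeq, STAR and DESeq2, with build mm39. No source used here states the annotation or the strand setting. Per the labels' protocols, SMARTer Ultra Low Input libraries were read as 101-base pairs. In each series table, 3 columns had names matching no label and were not used. The 5 summary lines naming no gene (15.9% to 21.0% of reads; reads with several alignments 3.67% to 4.43%) were left out.

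Tests used edgeR 4.0.16 (quasi-likelihood F test, TMM, all 15 libraries in 1 model of 5 groups, minimum count 10, minimum total 15, Benjamini-Hochberg threshold 0.05). The SE divides the absolute log2 fold change by the root of F. Levels use TMM library sizes and are in CPM. Alternatives were relative log expression factors, no filter, DESeq2 1.42.0, limma 3.58.1 on log2 of the deposited CPM plus 1, only the compared groups, a replicate block, a term for or removal of libraries numbered 1, Ly6c1 and Ly6c2 added, and each library left out in turn. The test was tried on simulated data with changes set in 1 group and no effect of library number, so that trial does not cover such an effect. The Ly6 genes and all lists were chosen with earlier results of these data known. From each list up to 4 genes with the smallest adjusted p were named in 4 comparisons, with every called gene where few passed, and the 3 genes most correlated with each Ly6 gene, among genes of mean log2 CPM of at least 3. Lengths, coding sequences and shared windows are from GENCODE M21 (GRCm38), a build other than that of the files, so no gene coordinates were taken from it.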

Additional observations from a re-analysis of the deposited data

Results flagged for a closer look

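For 3 of the 6 Ly6 genes, the difference between CD4-bearing and CD8 SP cells was not the same in Thpok-RKF- mutant and WT cells. This is by edgeR's test of the difference of differences, which called 14.3% of all tested genes. The difference of differences was -7.77 log2 units for Ly6c1, 5.88 for Ly6c2 and -2.79 for Ly6a. For Ly6a the difference within the mutant was -0.50 ± 0.36 and did not pass (adjusted p = 0.742, edgeR). The sum of Ly6c1 and Ly6c2 did not pass the test of the difference of differences (-0.44 ± 0.19, adjusted p = 0.150, edgeR). WT CD8 SP cells came from I-Ab-/- hosts and the other groups from B2m-/- hosts, so host and genotype cannot be told apart in these values.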

How the results depend on the processing

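Each called Ly6 value kept its direction under every alternative run. Between Thpok-RKF+ and Thpok-RKF- CD4+CD8+ cells 1 of the 6 genes was called in the main test: the count was 2 with no filter, DESeq2, limma and the replicate block, and 3 with a term for the libraries numbered 1 or without them. With a library left out it ran from 1 to 2. Calls over all genes rose too, from 159 of 16550 in the main test to 428 of 31164 with no filter. They were 651 with DESeq2, 287 with limma, 236 with the block and 350 with the term, each of 16550. Without libraries numbered 1 they were 1753 of 16443, and with a library left out 50 to 1677. Against WT CD4 SP cells, Thpok-RKF+ CD4+CD8+ cells had 5 called under the block, the term and removal of those libraries (main 3), and Thpok-RKF- CD8 SP cells 5 under the term (main 3). Over all genes the Thpok-RKF+ pair had 1202 called in the main test and 1533, 1681 and 1009 under these settings. The Thpok-RKF- CD8 SP pair had 2922 in the main test and 3987 under the term. Against WT CD8 SP cells, Thpok-RKF+ CD4+CD8+ cells (main 1) had 2 under the block, the term and limma, 4 without libraries numbered 1, 0 with only the compared groups (1 with edgeR on all groups, 1 with DESeq2), and 1 to 2 with a library left out. Thpok-RKF- CD4+CD8+ cells (main 2) had 4 with no filter and without libraries numbered 1. Over all genes the Thpok-RKF+ pair had 1835 called in the main test, 2386 without libraries numbered 1 and 1393 with only the compared groups. Its calls were 2279, 2466 and 2248 under the block, the term and limma. The Thpok-RKF- pair had 2010 in the main test, 2134 with no filter and 2447 without libraries numbered 1. With Ly6c1 and Ly6c2 added, counts were 1, 1, 1 and 1 for the Thpok-RKF- CD4+CD8+ cells against Thpok-RKF- CD8 SP and WT CD8 SP, the Thpok-RKF+ CD4+CD8+ cells against Thpok-RKF- CD8 SP and the difference of differences, 2 for Thpok-RKF- CD4+CD8+ against WT CD4 SP and 0 for Thpok-RKF+ against WT CD8 SP: 2 genes became 1, and the sum itself did not pass in the last pair, in the difference of differences or in Thpok-RKF- CD4+CD8+ against WT CD4 SP. The other causes were not tested.

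Directions changed in uncalled values only. In Thpok-RKF+ over Thpok-RKF- CD4+CD8+ cells, without libraries numbered 1 Ly6a was -0.13 and Ly6e -0.034, and Ly6e was -0.0067 by limma. Ly6d in Thpok-RKF- CD4+CD8+ over CD8 SP cells was -0.30 without libraries numbered 1. Ly6k in Thpok-RKF- CD4+CD8+ over WT CD4 SP cells was -0.044 under the replicate block and -0.046 under the term. With a library left out, ranges crossing 0 were -0.15 to 1.76 (Ly6d) and -0.030 to 0.089 (Ly6e) in Thpok-RKF+ over Thpok-RKF- cells, -0.45 to 1.10 (Ly6d) and -0.59 to 0.047 (Ly6k) in Thpok-RKF- CD4+CD8+ over CD8 SP, -0.13 to 0.0093 (Ly6e) in Thpok-RKF+ CD4+CD8+ over Thpok-RKF- CD8 SP, and for Ly6k -0.18 to 0.33 in Thpok-RKF- CD4+CD8+ over WT CD4 SP, -0.0082 to 0.54 over WT CD8 SP and -0.046 to 0.38 in WT CD4 SP over WT CD8 SP cells. By limma, Ly6c1 changes against WT CD8 SP cells shrank by over 1.5 times on the fold scale, to 5.34 in Thpok-RKF- CD8 SP cells, 2.54 in Thpok-RKF- CD4+CD8+ cells, 1.32 in Thpok-RKF+ CD4+CD8+ cells and 3.78 in WT CD4 SP cells, and its difference of differences to -6.59; the added 1 CPM is large beside the WT CD8 SP level.

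The replicate numbers were not taken as pairs: of 30 same-numbered pairs of libraries (r from -0.05 to 0.22), 5 had deviations correlated above 0.1, all between libraries numbered 1, and 9 of 15 libraries correlated best with their own number, a hint from the data. Ly6d and Ly6c1 in WT CD8 SP cells rest on the fewest counts, so their folds are the least firm. Reads shared by Ly6c1 and Ly6c2 limit both.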
